A study of Mus musculus with 48 samples.

Results

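The 5 potassium channel genes described here were followed across all libraries of the study: Kcnj10 and Kcnj16, which encode inward-rectifier subunits, and Kcnk1, Kcnk2 and Kcnk10, which encode two-pore-domain subunits. They are 5 of the 24421 gene symbols listed in each deposited table, and were found by their symbol. All 5 were present in all 6 tables and all 5 passed the filter on low values in each of them. They were chosen by name with their levels at each age and genotype already known from the same libraries, so their differences between groups are given as a description and carry no p-value.

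The libraries are bulk RNA-seq of mouse cells labelled astrocytes, from the cortex, the hippocampus and the olfactory bulb, in 48 libraries and 15 groups. The developmental groups were postnatal day 1, 7 and 14 (P1, P7 and P14) with no genotype or treatment in the labels, with 3 libraries each except cortex P14 with 4. The other groups were taken at P28 from animals labelled Gabbr1 control or Gabbr1 cKO (conditional knockout), with 4 control and 4 cKO libraries in cortex, 2 and 4 in hippocampus, and 3 of each in the olfactory bulb. The protein of Gabbr1 is part of the GABA-B receptor for the inhibitory transmitter GABA. Tamoxifen, the drug that switches on inducible Cre, is a label of all hippocampus and olfactory bulb libraries at P28, controls included, and of the 3 cortex libraries YC157, YC159 and YC162. It is not a label of the other 5 cortex libraries of that age. The labels name neither the Cre line and its promoter nor the strain, and do not say which libraries came from separate animals, so the spread between libraries may be partly technical.

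Astrocytes take up the potassium that active neurons release and hold a very negative resting potential. Kcnj10 encodes Kir4.1, the main inward rectifier of the astrocyte membrane, and Kcnj16 encodes Kir5.1, which forms channels together with Kir4.1. The two-pore-domain channels encoded by Kcnk1 (TWIK-1), Kcnk2 (TREK-1) and Kcnk10 (TREK-2) pass leak current, and the TREK channels respond to stretch and lipids.

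In GENCODE M21 (GRCm38, the build known as mm10), Kcnj10 lies on the plus strand at chr1:172341210-172374085 and Kcnj16 on the plus strand at chr11:110968033-111027968, with no other annotated gene over them. Kcnk1 lies on the plus strand at chr8:125995170-126030685, where the antisense gene Gm45875 overlaps it. Kcnk2 lies on the minus strand at chr1:189207930-189402273, with antisense A430027H14Rik, the short RNA gene Gm24092 and a pair of same-strand genes inside its span. Kcnk10 lies on the minus strand at chr12:98429437-98578310 and shares bases with the antisense gene Gm40893 and with 5330409N07Rik. Whether the counting used strand is not given in the sources used here, so for the 3 Kcnk genes reads of these overlapping genes cannot be told apart.

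The promoter sequences of 4 members are shown. Kcnj10, Kcnj16 and Kcnk1 rose from P1 to P14 in each region, and Kcnk10 fell. Their steps between these ages differed, and Kcnk1 was not called from P1 to P7 in hippocampus. Kcnk2, which also rose from P1 to P14 but by less, is not shown. All 5 members matched the RefSeq table for GRCm38.p6 by symbol. It lists 4 promoters for Kcnj16, 4 for Kcnk2, 2 for Kcnk10 and 1 each for Kcnj10 and Kcnk1. Only the first of each gene was taken, so the motif and base counts below describe that window alone. Each window runs from 250 bases before to 50 bases after the first annotated start, 5′ to 3′ on the gene's strand, at chr1:172340960-172341259 (plus), chr11:110967783-110968082 (plus), chr8:125994852-125995151 (plus) and chr12:98578164-98578463 (minus) in the order below. Capitals mark a match to ACAAAG (a SOX-type motif) or to TTGGCA (a nuclear factor I half-site, read as TGCCAA on the other strand).
Kcnj10: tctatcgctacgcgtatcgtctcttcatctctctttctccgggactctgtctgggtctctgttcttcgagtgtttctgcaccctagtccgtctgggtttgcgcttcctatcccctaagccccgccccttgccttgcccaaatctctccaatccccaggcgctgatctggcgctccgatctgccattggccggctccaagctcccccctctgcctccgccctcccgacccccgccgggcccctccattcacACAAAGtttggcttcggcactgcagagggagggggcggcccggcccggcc
Kcnj16: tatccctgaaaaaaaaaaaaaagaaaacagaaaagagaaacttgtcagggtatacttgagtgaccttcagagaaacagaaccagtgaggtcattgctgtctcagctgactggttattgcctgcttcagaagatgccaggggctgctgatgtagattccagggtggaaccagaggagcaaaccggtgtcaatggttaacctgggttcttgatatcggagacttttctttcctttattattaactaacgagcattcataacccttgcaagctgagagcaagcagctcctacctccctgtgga
Kcnk1: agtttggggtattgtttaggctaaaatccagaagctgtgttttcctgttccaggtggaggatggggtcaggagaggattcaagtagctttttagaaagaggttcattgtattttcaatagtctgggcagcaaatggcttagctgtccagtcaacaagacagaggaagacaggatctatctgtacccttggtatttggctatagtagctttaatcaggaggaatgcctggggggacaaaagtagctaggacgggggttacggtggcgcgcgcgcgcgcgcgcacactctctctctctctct
Kcnk10: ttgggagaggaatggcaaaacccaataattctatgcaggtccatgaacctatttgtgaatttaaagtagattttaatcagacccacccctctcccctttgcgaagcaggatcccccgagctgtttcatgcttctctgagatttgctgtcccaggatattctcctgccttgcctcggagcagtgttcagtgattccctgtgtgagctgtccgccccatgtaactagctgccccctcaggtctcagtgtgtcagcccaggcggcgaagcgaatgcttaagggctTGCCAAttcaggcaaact
Both strands were searched for these motifs and for TATAAA, the TATA box, and no match overlapped another. Kcnj10 held 1 ACAAAG, which 18.7% of all 32851 promoter windows of that length hold. Kcnk10 held 1 TTGGCA, found in 14.1% of windows. None of the 5 windows held TATAAA, found in 13.6%, and Kcnj16, Kcnk1 and Kcnk2 held none of the 3 motifs. The Kcnj10 window stood apart in base composition, with 63.7% G and C and 21 CG pairs, against medians of 52.7% and 7 over all windows. The Kcnj16 window had 44.3% and 3 CG pairs, and the Kcnk1 window 49% and 10, so the windows of these 3 genes differ in base composition. The Kcnk1 window ends before the GENCODE start of that gene given above.

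Values below are the authors' normalized read counts, that is, reads of a gene divided by one factor per library. Reads assigned to genes per library ranged from 1773226 to 15008466. A difference is called when limma's Benjamini-Hochberg adjusted p over all genes of the table was under 0.05. The 9 astrocyte markers summed to 21088 to 27848 at P1 and 494260 to 552750 at P14 in cortex. The hippocampus sums were 13573 to 15605 at P1 and 425770 to 459550 at P14, and those of the olfactory bulb 5030 to 7159 and 123630 to 140510. None of them was at 0 in a whole group. Over the same ages the 9 neuron markers summed to 7448 to 10612 at P1 and 277 to 493 at P14 in cortex, again with none at 0 in a whole group. The hippocampus sums were 6032 to 8050 and 439 to 627, and those of the olfactory bulb 14718 to 18278 and 1966 to 3184. In these bulk libraries fewer cells of a type and less RNA per cell cannot be told apart. At P28 Gabbr1, the targeted gene, was lower in every cKO library than in every control library of its region, at 89.8 to 211 against 927 to 1930 in cortex. The hippocampus held 151.7 to 380 in cKO against 780 to 824, and the olfactory bulb 63.6 to 99.5 against 184 to 318. A pair of libraries stand apart in their ribosomal RNA: Rn45s took 0.594% of the reads of hippocampus P28 cKO replicate 2 and 0.476% of olfactory bulb P28 control replicate 2, against 13.7% to 38.0% in the other libraries.

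From P1 to P14, 4 of the 5 channel genes rose and Kcnk10 fell, in each of the 3 regions. Among all genes tested, 24% were called higher and 40.3% lower in cortex, 21% and 28.5% in the hippocampus, and 24.8% and 31.4% in the olfactory bulb. Of the 45 comparisons of a member between a pair of ages, 4 were not called, and the 3 comparisons of a region share libraries. In cortex 4 of 5 members were called from P1 to P7, where 33.7% of all genes tested were called, 5 from P7 to P14 (49.8% of all genes) and 5 from P1 to P14 (64.4%). In hippocampus 4 were called from P1 to P7 (18.1% of all genes), 5 from P7 to P14 (30.1%) and 5 from P1 to P14 (49.5%). In olfactory bulb 3 were called from P1 to P7 (10.6%), 5 from P7 to P14 (47%) and 5 from P1 to P14 (56.1%). Nothing is read from these counts, since the members were chosen with these comparisons known. The deposited scaling leaves the median gene at -0.27 on the log2 scale in cortex at P14 against P1. Under TMM scaling that median is 0.01.

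**Figure D1:**
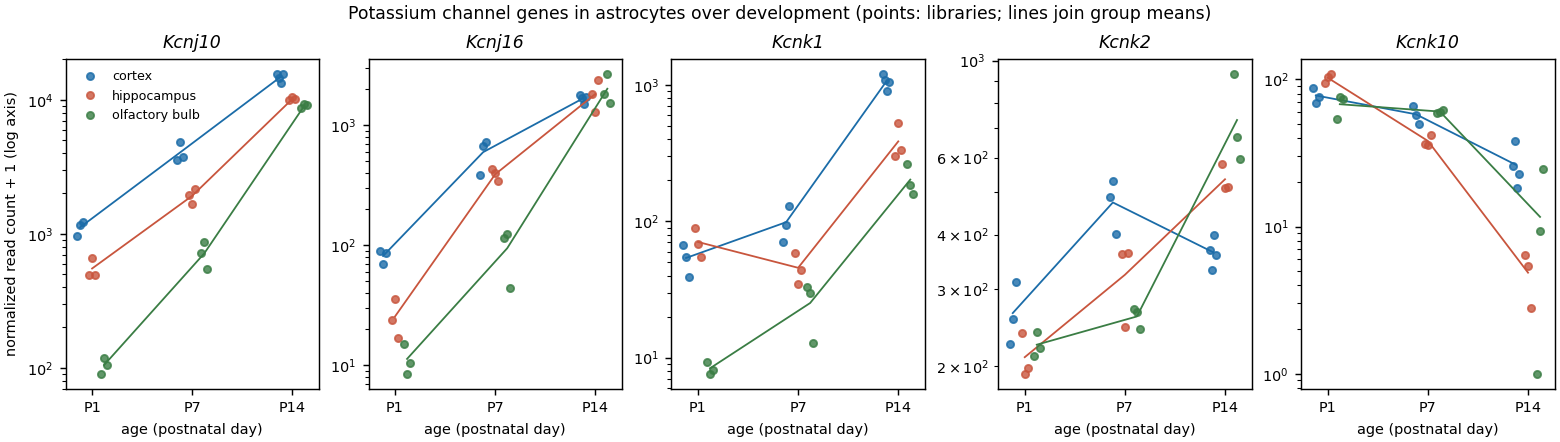
Normalized read count plus 1 (log axis) of the 5 channel genes at P1, P7 and P14. Each point is a library, colours mark the region, and lines join group means. Kcnj10, Kcnj16 and Kcnk1 end highest at P14, Kcnk10 ends lowest, and Kcnk2 in cortex peaks at P7.

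Kcnj10 rose at each step in each region. In cortex its 3 libraries held 962, 1163 and 1223 at P1, then 3573, 4825 and 3756 by P7, while the 4 of P14 held 15495, 14606, 13444 and 15560. The groups do not overlap, and the level at P14 was 13.3-fold that at P1 (log2 difference 3.73 ± 0.12 SE, 95% interval 3.48 to 3.98). In hippocampus the libraries held 492, 664 and 493 at P1, 1936, 1677 and 2151 at P7, and 9889, 10462 and 10097 at P14. That is an 18.6-fold rise (4.22 ± 0.14 SE), again with every older library above every younger one. In olfactory bulb Kcnj10 started lowest, at 89.3, 118.01 and 104, and reached 724, 874 and 540 at P7 and 8676, 9231 and 9216 at P14. There it rose 86.8-fold (6.44 ± 0.17 SE, 95% interval 6.06 to 6.82), and most of the rise came after P7, at 3.69 ± 0.17 SE against 2.75 ± 0.17 SE before. The tables were scaled separately, so the difference in the size of the rise between regions was not tested. The astrocyte marker sums given above also rose from P1 to P14 in each region. The part of astrocyte share in the Kcnj10 values, and in those of Kcnj16 below, was not tested.

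Kcnj16, the partner subunit, also rose at each step in each region, from a lower start and by a larger fold than Kcnj10 from P1 to P14. From P7 to P14 its fold was the smaller of the pair in cortex (2.91 against 3.67) and hippocampus (4.55 against 5.31). Cortex libraries held 87.8, 68.8 and 84.4 at P1, 385, 677 and 725 at P7, and 1794, 1689, 1497 and 1731 at P14. This is a 20.7-fold rise (4.37 ± 0.18 SE), with the larger step between P1 and P7 (2.83 ± 0.19 SE, against 1.54 ± 0.18 SE afterwards). Hippocampus libraries went from 22.8, 34.7 and 16.0 through 429, 395 and 342 to 1818, 1283 and 2359. The total rise was 72.6-fold (6.18 ± 0.28 SE), of which 3.99 ± 0.28 SE came before P7. Olfactory bulb libraries held 13.98, 7.49 and 9.38 at P1, from 17 to 39 reads each, then 114, 123 and 42.7 at P7, and 1837, 2669 and 1534 at P14. Here the later step was the larger one (4.52 ± 0.39 SE, against 2.96 ± 0.39 SE), and the total of 7.48 ± 0.39 SE ranked 8 from the highest of 11490 genes tested.

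**Figure D2:**
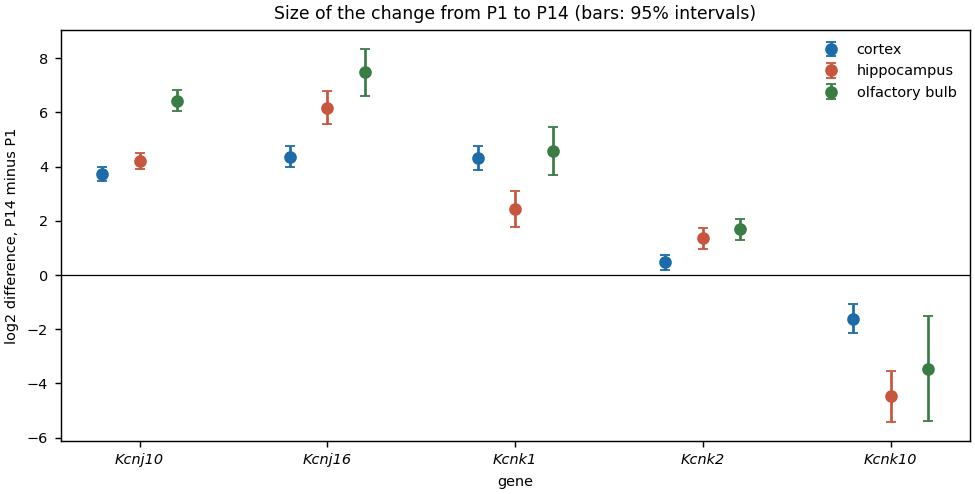
Log2 difference between P14 and P1 for each channel gene (points, cortex blue, hippocampus red, olfactory bulb green) with 95% intervals (bars). Kcnj16 has the largest values, from 4.37 to 7.48, and Kcnk10 is the member below 0 in all regions.

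Because Kir5.1 works together with Kir4.1, the level of Kcnj16 was set against that of Kcnj10 in the same library, each per kilobase of annotated exon. In cortex Kcnj16 stood at a median of 9.48% of Kcnj10 at P1 (8.12% to 12.5%), 19.3% at P7 (14.8% to 26.5%) and 15.6% at P14 (15.3% to 15.9%). The P1 libraries lie below all others, and the P14 libraries are nearly equal. In hippocampus the share was 6.36% at P1 (4.45% to 7.19%), 30.5% at P7 (21.8% to 32.4%) and 25.3% at P14 (16.9% to 32.1%). In olfactory bulb it was 12.4% at P1 (8.71% to 21.5%), 19.3% at P7 (10.9% to 21.7%), and 29.1% at P14 (22.9% to 39.7%), where P1 and P7 overlap and P14 lies above both. At P28 the medians were 28.3% in control and 23.8% in cKO libraries of cortex, 24.7% and 33.8% in those of hippocampus, and 25.3% and 20.0% in the bulb. Control and cKO libraries overlap in each region at P28. The 3 highest shares at P28 were 62.0% in hippocampus cKO and 56.6% in olfactory bulb control, both in the libraries with little Rn45s, and 45.03% in another hippocampus cKO library.

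**Figure D3:**
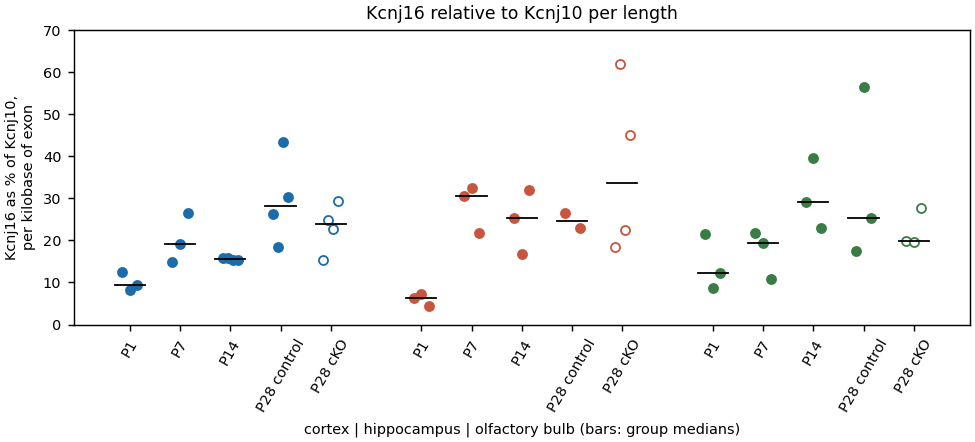
Kcnj16 as a percentage of Kcnj10, both per kilobase of exon, in each library (points, filled for developmental and control libraries, open for cKO), by region from left to right. Bars are group medians, which rise from 6.36% at P1 to 30.5% at P7 in hippocampus.

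Kcnk1, the TWIK-1 subunit, rose mainly in the second postnatal week. Cortex libraries held 66.5, 53.6 and 38.2 at P1 and 69.8, 93.6 and 129 at P7, then 1203, 1085, 905 and 1049 at P14. The step from P7 to P14 was 11.1-fold (3.47 ± 0.21 SE), and the earlier step 1.82-fold (0.86 ± 0.22 SE). In hippocampus Kcnk1 stood at 87.6, 66.8 and 54.1 at P1 and at 57.4, 33.8 and 42.6 at P7, which overlap and were not called (-0.63 ± 0.30 SE). It then rose 8.41-fold to 302, 522 and 331 at P14 (3.07 ± 0.30 SE). Olfactory bulb held the lowest levels, 8.25, 6.60 and 7.17 at P1, from 13 to 23 reads each. It reached 32.0, 28.6 and 11.9 at P7 and 262, 185 and 156.9 at P14, a further 8.51-fold rise (3.09 ± 0.40 SE). The summed level of 6 oligodendrocyte markers also increased between P1 and P14 in all 3 regions, and in hippocampus it was higher at P7 than at P1, where Kcnk1 was not. The sum was 334 to 381 at P1, 855 to 1039 at P7 and 15195 to 26006 at P14 in cortex, with none at 0 in a whole group. It was 72.3 to 91.3, 276 to 321 and 1603 to 2310 in hippocampus, with Mobp at 0 at P1 and Mog at 0 at P14. In olfactory bulb it was 98.7 to 186, 304 to 351 and 1919 to 2234, with Mag at 0 at P1 and P14 and Mobp at 0 at P7. The part of these cells in the Kcnk1 values was not tested.

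Kcnk2, the TREK-1 subunit, changed least and followed a different course in cortex. There the libraries held 223, 256 and 311 at P1, rose to 487, 530 and 401 at P7 (0.84 ± 0.14 SE), and fell to 368, 330, 398 and 357 at P14. The level at P14 was 0.77-fold that at P7 (-0.37 ± 0.13 SE). Under TMM scaling it was -0.19 and was not called. In hippocampus Kcnk2 rose at both steps, from 238, 191 and 197 through 360, 245 and 362 to 580, 509 and 512, which is 2.56-fold from P1 to P14 (1.36 ± 0.18 SE). In olfactory bulb it held 210, 239 and 219 at P1 and 269, 265 and 243 at P7, a step that was not called (0.22 ± 0.17 SE). It then rose 2.76-fold to 930, 667 and 593 at P14 (1.47 ± 0.17 SE).

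Kcnk10, the TREK-2 subunit, was the member that fell. In cortex its libraries held 86.4, 68.5 and 75.2 at P1, 65.2, 56.4 and 48.9 at P7 and 24.6, 37.1, 17.3 and 21.8 at P14, which is 0.33-fold from P1 to P14 (-1.61 ± 0.25 SE). The first step was not called (-0.43 ± 0.27 SE). In hippocampus it fell at both steps, from 93.3, 103 and 108 through 35.6, 35.03 and 40.7 to 5.37, 4.41 and 1.79, the last 3 values resting on 5, 4 and 1 reads. The difference over both steps was -4.48 ± 0.43 SE. In olfactory bulb the libraries held 53.1, 74.9 and 72.2 at P1 and 58.4, 58.6 and 61.1 at P7, which overlap. At P14 they held 0, 8.27 and 23.6, from 0, 6 and 17 reads, and the library at 0 reads allows a value of up to 5.96. The difference from P1 was -3.45 ± 0.88 SE, with a 95% interval of -5.39 to -1.51. The limit for 0 reads covers counting error only. The neuron marker sums given above also stood lower at P14 than at P1 throughout, and the part of neurons in the Kcnk10 values was not tested.

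Per kilobase of exon, Kcnj10 was the highest of the 5 in 14 of the 15 groups, and in 12 of these no library of the next gene reached it. In olfactory bulb at P1 Kcnk2 came first, at a mean of 45.1 per kilobase against 19.2 for Kcnj10, with no overlap. At P1 in cortex Kcnj10 stood at 206 per kilobase, Kcnk2 at 53.3, Kcnk1 at 23.6, Kcnj16 at 20.4 and Kcnk10 at 8.74, with the libraries of Kcnk1 and Kcnj16 overlapping. At P14 in cortex Kcnj10 stood at 2733, Kcnk1 at 475 and Kcnj16 at 426, of which the last pair overlap, followed by Kcnk2 at 73.5 and Kcnk10 at 2.87. In hippocampus at P14 the order was Kcnj10 at 1877, Kcnj16 at 462, Kcnk1 at 172, Kcnk2 at 108 and Kcnk10 at 0.44, with no overlap between neighbours. In olfactory bulb at P14 it was Kcnj10 at 1672, Kcnj16 at 511, Kcnk2 at 147.7, Kcnk1 at 90.1 and Kcnk10 at 1.21, also without overlap. At P14 Kcnk1 thus stood above Kcnk2 in cortex and hippocampus and below it in olfactory bulb.

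Listed genes that work beside these channels in potassium, glutamate and water handling mostly rose with them. At P14 against P1, 24% (cortex), 21% (hippocampus) and 24.8% (olfactory bulb) of all genes tested were called higher. Of the 14 partner genes listed, all tested, 13 were called higher at P14 than at P1 in all 3 regions. Among them are the sodium pump subunit Atp1b2 and the pump regulator Fxyd1, the water channel Aqp4, Dag1 and Dmd of the complex that anchors it, the glutamate transporters Slc1a2 and Slc1a3, the connexins Gja1 and Gjb6, and the adhesion and volume regulators Mlc1 and Hepacam. The list's median log2 difference was 2.34 (cortex), 3.74 (hippocampus) and 3.99 (olfactory bulb), beside medians over all genes tested of -0.27, -0.29 and -0.24. This list and those of other channel genes below were chosen with earlier results of these data known. Their counts and medians are a description, and nothing is read from them. Aqp4, which sits in the same endfoot membrane as Kir4.1, rose 5.36-fold (cortex), 23.5-fold (hippocampus) and 128-fold (olfactory bulb). Aqp4, Slc1a2, Slc1a3 and Gja1 are also among the astrocyte markers summed above. The part of astrocyte share in the values of this list was not tested. Slc12a2, the sodium-potassium-chloride cotransporter, was called lower in cortex (-0.49 ± 0.14 SE) and hippocampus (-1.29 ± 0.34 SE) and was not called in olfactory bulb (-0.28 ± 0.18 SE).

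Of 13 other inward-rectifier genes listed, 4 passed the filter in cortex and 3 each in hippocampus and olfactory bulb, and none was called higher at P14 than at P1. In cortex all 4 were called lower: Kcnj2 (-2.87 ± 0.49 SE), Kcnj3 (-3.30 ± 0.51 SE), Kcnj6 (-3.58 ± 0.58 SE) and Kcnj13 (-1.76 ± 0.60 SE). Kcnj3 and Kcnj6 encode subunits of G-protein-gated channels of neurons. Kcnj2 and Kcnj3 were called lower in hippocampus, and Kcnj6 in olfactory bulb. Over all genes tested, 40.3% (cortex), 28.5% (hippocampus) and 31.4% (olfactory bulb) were called lower at P14 than at P1. Kcnj2 in olfactory bulb had a difference of 2.29 ± 1.04 SE that was not called. Kcnj14, below the filter, held 0 to 0.76 at P1 and 8.83 to 23.9 at P14 in cortex. None of the 11 other two-pore genes passed the filter in a developmental table. Their highest mean in any of the 15 groups was 16.6, that of Kcnk3 in olfactory bulb P28 controls.

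The genes whose course over the developmental libraries was most like that of a member are named by the lowest of its 3 regional Pearson correlations, over 10, 9 and 9 libraries and 10838 genes tested in all 3 tables. Libraries of a table share their scaling and their ages, so these values describe the age course. For Kcnj10 they were Pbxip1 (0.990), Fndc5 (0.990) and Acsbg1 (0.988), an acyl-CoA synthetase gene. Kcnj16 had 0.962 with Kcnj10. For Kcnj16 they were Eps8 (0.988), the voltage-gated channel gene Kcna2 (0.987) and Baalc (0.986). For Kcnk1 they included the myelin gene Mbp (0.936) and the adhesion gene Cadm1 (0.917). For Kcnk2 they were Cav2 (0.944), the BMP receptor gene Bmpr1a (0.939) and Ptprg (0.930), and for Kcnk10 they were Pafah1b3 (0.949), Pcdhac2 (0.931) and Dusp8 (0.931). Kcnk10 ran opposite to Kcnj10, with correlations of -0.905 (cortex), -0.974 (hippocampus) and -0.744 (olfactory bulb).

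At P28 the question was whether the channel genes differed between Gabbr1 cKO and control astrocytes. None of the 15 comparisons of a member was called by limma, nor by edgeR on the recovered reads. Over all genes tested, limma called 0.00982% in cortex (1 of 10188, Gabbr1), 0% of the 11639 hippocampus genes and 0% of the 11539 bulb genes, with 221, 296 and 349 genes at an unadjusted p under 0.05. With edgeR the calls were 1, 0 and 0 and the genes at an unadjusted p under 0.05 were 228, 318 and 576. The groups did not overlap for 1 member in hippocampus (15% of all genes), for 1 in the olfactory bulb (10%) and for none in cortex (1.89%). Both were Kcnk1, higher in cKO, a direction without overlap that 7.08% of genes in hippocampus and 5.3% in olfactory bulb also show.

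**Figure D4:**
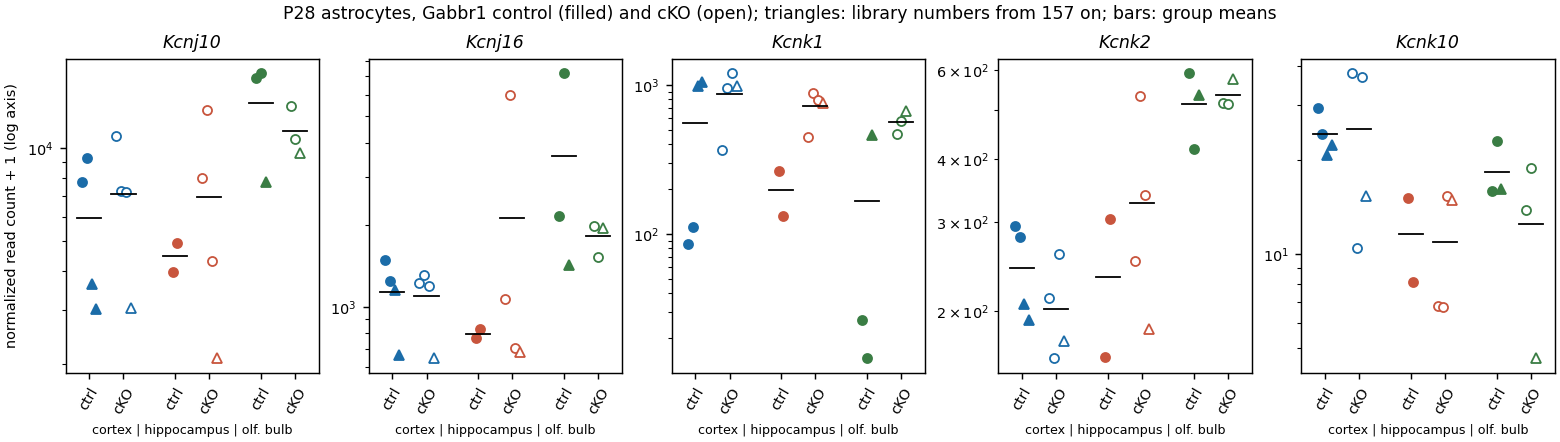
Normalized read count plus 1 (log axis) of the 5 channel genes in P28 control (ctrl, filled) and cKO (open) libraries of cortex, hippocampus and olfactory bulb, with bars at group means and triangles for library numbers from YC157 on. Control and cKO points overlap in each region except for Kcnk1 in hippocampus and olfactory bulb.

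In cortex at P28 Kcnj10 differed between libraries of the earlier and the later numbers, which also carry different label styles. The 5 cortex libraries numbered below YC157 held 7783 and 9283 in control and 10950, 7262 and 7184 in cKO. The 3 numbered from YC157 on, which carry the tamoxifen label, held 3635 and 3016 in control and 3026 in cKO, all below the first set. The astrocyte marker sum was also lower there, at 145130 to 205130 against 232420 to 301710 in the first set. The oligodendrocyte marker sum was higher, at 8377 to 14248 against 2730 to 5937. The part of cell composition, tamoxifen or library set in the Kcnj10 values was not tested. Within the first set the genotype difference was -0.03 on the log2 scale and within the second -0.13, against 0.28 (95% interval -0.54 to 1.11) over all 8. In hippocampus Kcnj10 held 3981 and 4941 in control and 8009, 13308, 4307 and 2084 in cKO (0.33, 95% interval -1.09 to 1.74). The highest of these is the library with little Rn45s, and without it the difference was -0.09. In olfactory bulb it held 16880, 17449 and 7748 in control and 13685, 10670 and 9657 in cKO (-0.23, 95% interval -0.95 to 0.48). The intervals allow a change in either direction in each region.

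Kcnj16 held 1487, 1245, 1150 and 666 in cortex controls and 1218, 1309, 1195 and 647 in cortex cKO libraries (-0.05, 95% interval -0.62 to 0.52). In hippocampus the controls held 768 and 827 and the cKO libraries 1070, 6003, 704 and 683. The value of 6003 belongs to the library with little Rn45s, and without that library the log2 difference fell from 0.73 to 0.008. In olfactory bulb the controls held 2154, 7187 and 1424 and the cKO libraries 1987, 1519 and 1946. The highest control is again the one with little Rn45s, and without it the difference went from -0.64 to 0.04. The part of RNA composition in these 2 values was not tested.

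Kcnk1 was the member with the largest genotype differences. Cortex controls held 84.5, 110, 974 and 1044 and cKO libraries 361, 945, 1191 and 980, which overlap (1.34 ± 0.68 SE, 95% interval -0.11 to 2.80). In hippocampus the 2 controls held 262 and 130 and the 4 cKO libraries 443, 878, 786 and 756 (1.90 ± 0.38 SE, 95% interval 1.04 to 2.76). In olfactory bulb the controls held 25.3, 13.6 and 460 and the cKO libraries 464, 568 and 661 (3.32 ± 0.98 SE, 95% interval 1.15 to 5.49). This was the highest upward difference among the 11539 genes tested in that table and ranked 5 by size in either direction, and it was not called. By edgeR on the recovered reads the difference was 1.74 in the olfactory bulb, 0.65 in cortex and 1.87 in hippocampus. The highest control and the lowest cKO library of olfactory bulb differ by less than 5 units. The olfactory bulb control at 13.6, from 8 reads, and the hippocampus cKO library at 878 are the 2 libraries with little Rn45s.

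The controls fall apart by library number. The 6 controls numbered YC142 to YC150 held Kcnk1 at 13.6 to 262, and the 3 controls numbered from YC157 on held 460 to 1044. The 8 cKO libraries numbered YC145 to YC156 held 361 to 1191, and the 3 numbered from YC157 on 661 to 980. These ranges pool 3 regions whose values were scaled separately, and the labels do not say which libraries share an animal. Within cortex the genotype difference was 2.93 over the 5 libraries below YC157, a set in which Kcnk1 was called and in which 3 genes were called in all, and -0.04 over the 3 from YC157 on. The difference between these sets was not tested. No hippocampus control is numbered from YC157 on, so there the later numbers hold cKO only. Without olfactory bulb control replicate 3, the one with 460, the difference there was 4.84 and was called. The oligodendrocyte marker sum ranged from 2548 to 6490 in the 6 earlier controls and from 8377 to 14248 in the 3 later ones. In cKO libraries it ranged from 2730 to 17264 in the earlier and from 4860 to 11627 in the later. The value of 17264 belongs to the hippocampus library with little Rn45s. These sums pool the 3 regions too. Below YC157 the cortex sums were 2859 and 2775 in control and 2730 to 5937 in cKO libraries. Those of hippocampus were 4052 and 6490 in control and 5067 to 17264 in cKO. In olfactory bulb they were 2548 and 3552 in control and 3115 and 4355 in cKO, so the genotypes overlap in each region. The part of the oligodendrocyte marker sum in the Kcnk1 values was not tested.

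**Figure D5:**
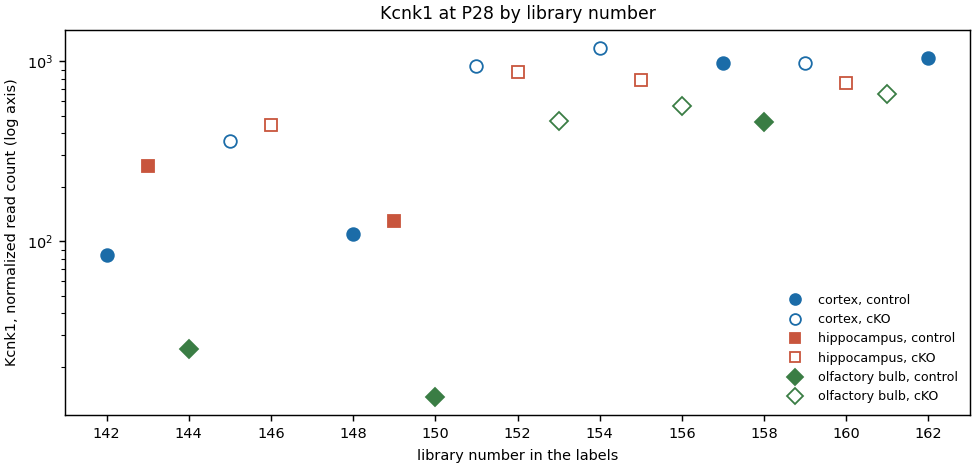
Kcnk1 normalized read count (log axis) in each P28 library against the library number in the labels, filled for control and open for cKO, with shapes and colours for region. The 6 filled points up to YC150 lie between 13.6 and 262, and the 3 from YC157 on lie between 460 and 1044, among the cKO points. Regions were scaled separately, and points may share an animal.

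Kcnk2 and Kcnk10 overlapped between genotypes in each region. Kcnk2 held 192 to 294 in control and 160 to 259 in cKO libraries of cortex (-0.27, 95% interval -0.77 to 0.23). In hippocampus its 2 controls held 161.9 and 304 and its cKO libraries 184 to 533 (0.44, 95% interval -0.56 to 1.45), and in olfactory bulb 417 to 590 stood against 513 to 575 (0.07, 95% interval -0.43 to 0.57). Kcnk10 stayed low, at 19.7 to 28.5 in control and 9.44 to 37.0 in cKO libraries of cortex (-0.14, 95% interval -1.26 to 0.97). In hippocampus it held 14.1 and 7.12 against 5.78 to 14.4, and in olfactory bulb 14.9 to 22.1 against 3.62 to 17.9, from 4 to 18 reads each. The differences were -0.13 in hippocampus (95% interval -2.29 to 2.04) and -0.76 in the olfactory bulb (95% interval -2.49 to 0.97), intervals that leave room for changes of more than 1 log2 unit.

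None of the 14 partner genes was called between genotypes in a region (limma), and their median log2 differences were 0.03 (cortex), 0.50 (hippocampus) and 0.15 (olfactory bulb), beside -8.4e-05, -0.04 and 0.02 over all genes tested. In hippocampus 8 of the 14 did not overlap and all 8 were higher in cKO, from Dag1 at 0.34 to Dmd at 1.05, a direction without overlap that 7.08% of all genes show. The 5 choroid plexus markers summed there to 67795 to 139360 in the 2 controls and to 11245 to 127040 in the 4 cKO libraries, with none at 0. The inward rectifier Kcnj13, a gene of choroid plexus epithelium, held 960 to 1566 in these controls and 446 to 1192 in cKO (-0.76 ± 0.42 SE, not called). The part of choroid plexus cells in the hippocampus differences was not tested.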

How the data were processed

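The signal deposited by the authors is normalized gene by gene and comes in 6 tables, 1 per region for development and 1 per region for the P28 genotypes. Within each of the 48 libraries all values could be divided by one number to give whole reads (100% of values within 0.01 read), so the deposited signal is reads over a library factor. This is a weak check for replicate 2 of olfactory bulb P28 cKO, whose number lies close to 1. The submitters' processing notes name STAR 2.5.0a, DESeq2 1.20.0, FastQC, MultiQC and mm10. The counting program, its strand setting and the annotation are not given in the sources used here. Per the labels' protocols, libraries came from low amounts of total RNA and a NuGEN Trio kit. In 5 tables, 27 symbols turned into dates were restored from the row order of the sixth.

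Genes with a table mean of at least 10 were tested within each table with limma 3.58.1 (lmFit, eBayes with trend, R 4.3.3) on log2(value + 1), with Benjamini-Hochberg adjustment over all genes. The added 1 can understate the change of low genes, as for Kcnj16 in olfactory bulb at P14 against P1 (178.7-fold, 195.8-fold by group means). Where a library is near 0, the difference can instead exceed that of the group means. Kcnk10 in that comparison was 0.091-fold, and 0.159-fold by group means. Kcnk1 in olfactory bulb at P28 was 9.97-fold, and 3.40-fold by group means. The limma step was tested on simulated counts with known changes. Groups came from the labels, and replicate numbers, in accession order, pair nothing. Alternatives were a pseudocount of 8, no filter, TMM scaling, edgeR 4.0.16 (quasi-likelihood) on the recovered reads, leaving out each library, and, in P28 cortex, the round of deposit as a covariate or its first round alone. A covariate for library numbers from YC157 on, in P28 hippocampus and olfactory bulb, was added after seeing the data. Members, gene lists and marker lists were chosen with earlier results of these data known. Named genes are the members, Gabbr1, listed genes called in the same direction in all 3 regions or of the highest level, and the 3 genes with the most similar course, leaving out predicted genes; further listed genes were named after their values were seen. A few genes that this rule would name are not reported here, and the counts and medians of their lists include them. Exon lengths are from GENCODE M21.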

Additional observations from a re-analysis of the deposited data

Results flagged for a closer look

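The 5 members were examined in each of the 4 groups of 4 libraries, and 1 of these 20 sets of values held a library far from the others. It is hippocampus P28 cKO replicate 2, with Kcnj16 at 6003.1 against 683 to 1070 in the other 3 cKO libraries. The criterion, a 95% critical value, by construction marks about 1 in 20 such sets by chance, and the 20 sets share libraries. This library is one of the 2 with little Rn45s.

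The step from P7 to P14 in Kcnk2 went in opposite directions under the deposited scaling. It was -0.37 in cortex, where every P14 library lay below every P7 library, and 0.75 in hippocampus and 1.47 in olfactory bulb, where every P14 library lay above. The cortex separation is narrow, at 398 for the highest P14 library and 401 for the lowest P7 library. The median gene of that comparison was at -0.19. Under TMM scaling the Kcnk2 fall in cortex was smaller and was not called, and leaving out 1 library could also end the call. The tables were scaled separately, and the difference between regions was not tested.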

How the results depend on the processing

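All member calls from P1 to P14 held, in the same direction, under each alternative run. Over the 60 member differences, TMM scaling ended 1 call (Kcnk2 in cortex, P14 against P7, at -0.19), a pseudocount of 8 ended 1 (Kcnk1 in olfactory bulb, P7 against P1, at 1.00) and dropping the filter ended 3. Leaving out 1 library ended 21 calls in all, among Kcnk2 in cortex (P14 against P7) and hippocampus, Kcnk10 in hippocampus (P7 against P1) and Kcnk1 in olfactory bulb (P7 against P1). In hippocampus at P7 against P1 the members called went from 4 to 2 without the filter and to between 2 and 3 with a library left out. At P28 the members called went from 0 to 1 (Kcnk1) in cortex with the first deposit round alone, and to between 0 and 1 in olfactory bulb with a library left out, the 1 being without control replicate 3. For Kcnk1 edgeR gave smaller differences, 0.65 in cortex and 1.74 in olfactory bulb. At P28 the sign of uncalled differences turned for Kcnj10 in cortex with the deposit round as a covariate (-0.069) or its first round alone (-0.035), and for Kcnk10 in cortex with edgeR (0.060). With a library left out, the ranges that cross 0 were -0.29 to 0.18 for Kcnj16 and -0.41 to 0.21 for Kcnk10 in cortex, -0.093 to 0.80 for Kcnj10, -0.0091 to 0.90 for Kcnk2 and -0.57 to 0.067 for Kcnk10 in hippocampus, and -1.12 to 0.043 for Kcnj16 and -0.072 to 0.18 for Kcnk2 in olfactory bulb. The causes were not tested. TMM scaling moved the split of all cortex calls at P14 against P1 from 2843 higher and 4765 lower to 3819 and 3640, at P14 against P7 from 2197 and 3696 to 3006 and 2738, and at P7 against P1 from 1850 and 2135 to 2204 and 1624. Without the filter the calls among the listed partner and channel genes rose to 21 in hippocampus and 25 in olfactory bulb at P14 against P7. No paired analysis was possible because the labels give no replicate numbers or animals that link the groups. Depth limits Kcnk10 most, with 0 to 18 reads per library in hippocampus and olfactory bulb from P14 on.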

Other observations

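Kcnk1 had the largest genotype difference at P28 among the tested genes within 1 Mb of it on chromosome 8 (GENCODE M21) in hippocampus and in the olfactory bulb. In cortex Slc35f3 had a larger one, of -2.08 ± 1.01 SE. None of these genes was called by limma. Sipa1l2, on one side, held 138 to 213 in controls and 231 to 289 in cKO libraries of olfactory bulb (log2 difference 0.57 ± 0.27 SE), and 18.8 to 50.7 against 0 to 79.8 in hippocampus (-0.46 ± 1.61 SE). Its olfactory bulb groups did not overlap, and 5.3% of all genes there were also higher in cKO without overlap. Slc35f3, on the other side, gave -0.18 ± 0.45 SE in olfactory bulb and -0.89 ± 0.82 SE in hippocampus. Irf2bp2, a transcriptional corepressor gene further along, gave 0.59 ± 0.33 SE and 0.47 ± 0.32 SE, and Tomm20, a mitochondrial import receptor gene, -0.12 ± 0.26 SE and -0.12 ± 0.32 SE. In olfactory bulb Map10 gave 1.11 ± 0.81 SE, Ntpcr 0.87 ± 1.07 SE and Rbm34 -0.46 ± 0.51 SE. Ntpcr gave 0.04 ± 0.89 SE and Rbm34 0.14 ± 0.43 SE in hippocampus, and Rbm34 0.85 ± 0.55 SE in cortex. Kcnk1 itself gave 3.32 ± 0.98 SE in olfactory bulb and 1.90 ± 0.38 SE in hippocampus. In hippocampus Tsnax held 150 to 196 in controls and 93.9 to 112 in cKO libraries (-0.69 ± 0.33 SE). Coa6 held 46.3 to 52.4 against 7.22 to 42.6 there (-0.96 ± 0.75 SE). Both were without overlap there, as were 15% of all genes in either direction. In olfactory bulb they overlapped, at 0.37 ± 0.45 SE and -0.29 ± 0.52 SE. These genes were named after their values were seen.

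Kcnj3, a G-protein-gated channel subunit gene of neurons that GABA-B receptors can act on, held 7.82 and 11.6 in the 2 hippocampus controls at P28 and 37.6 to 53.9 in the 4 cKO libraries. The difference was 2.09 ± 0.58 SE, without overlap, and was not called. Of all genes tested in hippocampus, 7.08% were also higher in cKO without overlap. In olfactory bulb it held 66.6 to 357 in control and 53.3 to 153.3 in cKO libraries (-0.42 ± 0.60 SE), and in cortex 2.34 to 21.9 against 1.05 to 14.4 (-0.91 ± 0.98 SE). The hippocampus neuron marker sums were 275 to 467 in control and 303 to 1131 in cKO libraries, and their part in the Kcnj3 values was not tested.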
